A study of Gossypium hirsutum with 6 samples.

Results

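The regions described here are twin H3K4me3 peaks of cotton leaf, meaning neighbouring peaks of one chromatin immunoprecipitation library that are parted by a gap shorter than 500 bp. Both peaks of a twin had to be narrower than 1500 bp, to overlap a peak of a second library by at least 1 bp, and to lie off every peak of the repressive mark H3K27me3 in its replicate 1 list. On the 26 chromosomes, 3088 of the 69851 neighbouring H3K4me3 replicate 1 peaks met this rule (4.42%). Members were chosen by their gap, their widths and their overlaps, so the levels of these values are given below as descriptions without a test. Tests were run only on differences between the D and A subgenomes, which the rule does not use, and on breaks in the peaks of the second library. The choice of members bears on the latter, as stated there.

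The data come from ChIP-seq (sequencing of DNA recovered by chromatin immunoprecipitation) of leaf tissue, taken at 20 days from the upland cotton line TM-1 (Gossypium hirsutum), with chromatin cut by micrococcal nuclease. The 6 samples were labelled H3K4me3, H3K27me3 and input without antibody, with 2 libraries each, and no treatment or second genotype was included. Upland cotton is an allotetraploid with a D and an A subgenome of 13 chromosomes each. One list of peak positions from each of the 4 antibody libraries was used, without heights or read numbers, so depth cannot be read from them and intervals given for shares cover counting error only. The labels do not say whether the libraries came from separate plants.

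The second library needs a caution before any result. It carries the label H3K27me3 replicate 2, but the name of its deposited list carries H3K4me3. Of its 42643 peaks on chromosomes, 89.8% overlapped H3K4me3 replicate 1 and 1.57% overlapped H3K27me3 replicate 1. The list labelled H3K4me3 replicate 2 had the opposite pattern, with 80.1% of its 24430 peaks on H3K27me3 replicate 1 and 32.8% on H3K4me3 replicate 1. It is called the second list below, and all statements on it are about the library labelled H3K27me3 replicate 2. With the list labelled H3K4me3 replicate 2 in its place, the same rule found 22 twins, and that list kept the gap, as defined below, in 13.6% of them. Few twins could be found in this way, since the rule leaves out peaks on H3K27me3 replicate 1, where 80.1% of that list lies.

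Chromatin is built from nucleosomes, in which DNA of about 150 bp is wound around a core of histones, and nucleosomes with their linkers repeat about every 200 bp in plants. H3K4me3 is trimethylated lysine of histone H3 and marks nucleosomes at the start of transcribed genes, whereas H3K27me3 marks silenced genes. Promoters often hold a stretch poor in nucleosomes, where a mark carried by histones gives little signal even though both flanks are marked. A gap in a peak list, however, is only a stretch that did not reach the threshold of the peak caller.

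The order of the conditions shows where candidates were lost. Gaps under 500 bp were found between 9815 neighbouring peaks (14.1%), and 9651 of these had both peaks under 1500 bp. Both peaks were in the second list in 3131 of them, a single peak in 2922 and neither in 3598. Overlap with H3K27me3 replicate 1 removed 43 more. The number 43 depends on this order. Without the second-list condition, 8231 of the 9651 narrow close pairs lay off H3K27me3 replicate 1. In either order the second list was the condition that removed most close peaks. Where both peaks met all conditions on single peaks at any distance, the neighbours are called eligible. Of all 69851 neighbours 20889 were eligible, and of the 9815 close ones 3088 were. These shares join the conditions on width, second list and H3K27me3 replicate 1. They are near each other, so the joint loss is not read as a trait of close peaks. The loss to the second list alone was not set against that of all neighbours. Twins made up 3088 of the 20889 eligible neighbours (14.8%, exact 95% interval 14.3 to 15.3%).

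Twins took up 6070 peaks, or 8.69% of H3K4me3 replicate 1 peaks on chromosomes. Most twins stood alone. In 2878 cases the run held 2 peaks, in 102 cases 3 peaks, and in 2 cases 4 peaks, so that 210 twins shared a peak with another twin. The longest runs were on D05 and A05. On D05, 4 peaks at bases 3652893 to 3655359 (2467 bp) had gaps of 318, 174 and 166 bp, and the second list covered all of these gaps. On A05, 4 peaks at bases 15765229 to 15768792 (3564 bp) had gaps of 363, 456 and 300 bp, and the second list left 337, 456 and 165 bp of them open, so that the middle gap was open in full. Positions are given on the TM-1 assembly of the authors, with the first base as 1. Genes, exons and introns at these positions were not looked up, since an annotation of this assembly was not used here.

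Gaps ranged from about the length of a nucleosome core to that of a few nucleosomes, a range bounded below by the list and above by the rule. The median gap of twins was 235 bp (95% interval 231 to 238 bp), with quartiles at 189 and 305 bp, a mean of 256 bp and an SD of 84.0 bp. The shortest gap was 151 bp and the longest 499 bp. In bp, gaps under 200 were seen in 961 twins (31.1%), of 200 to under 250 in 768, of 250 to under 300 in 543, of 300 to under 350 in 362, of 350 to under 400 in 200, of 400 to under 450 in 150 and of 450 to under 500 in 104. Thus 56.0% of twins had a gap under 250 bp and 14.7% had one of 350 bp or more. Numbers fell with each 50 bp step. In 10 bp steps, the fullest held 213 twins and began at 150 bp, the shortest gaps in the list. Steps under 230 bp held 150 to 213 twins, and no separate maximum stood at the repeat length, apart from a small rise described next. A maximum at the core length could not be told apart, since the list held no shorter gaps to set it against. The step that began at 200 bp held 198 twins (exact Poisson 95% interval 171 to 228), against 182 (157 to 210) for that at 190 bp and 164 (140 to 191) for that at 210 bp. These intervals overlap.

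**Figure D1:**
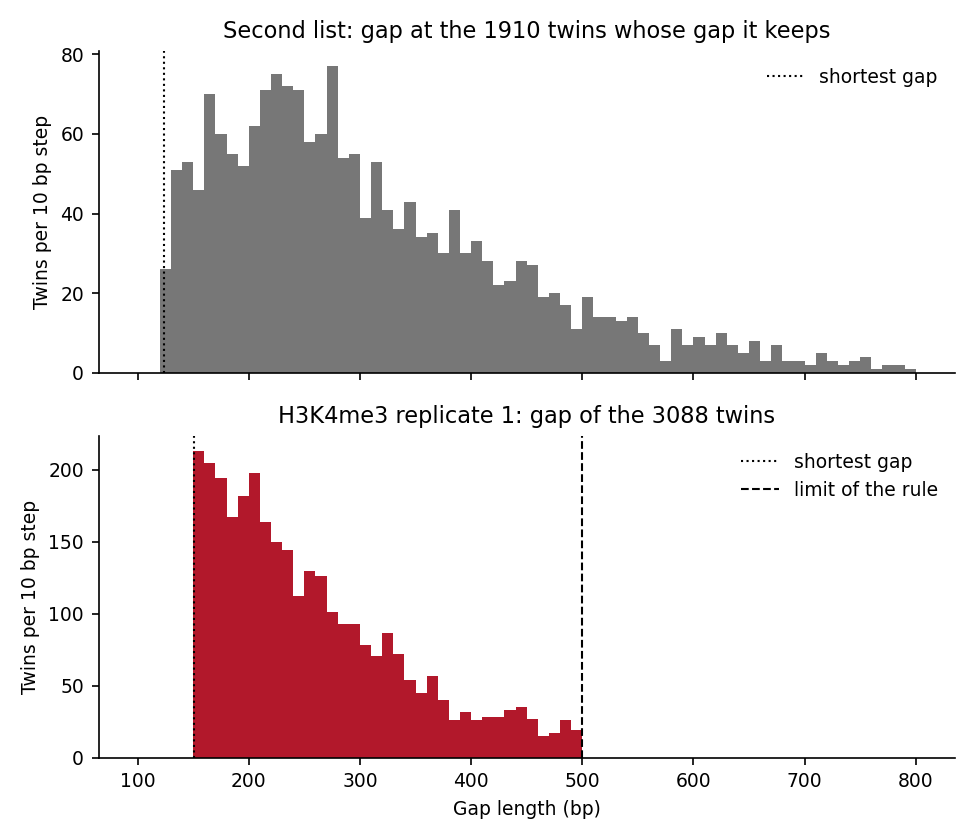
Gap lengths in 10 bp steps (x axis, bp; y axis, twins per step) for the 1910 twins whose gap the second list keeps, measured in the second list (upper panel), and for all 3088 twins, measured in H3K4me3 replicate 1 (lower panel). Dotted lines mark the shortest gaps (124 bp above, 151 bp below), the dashed line marks the 500 bp limit, and 33 second-list gaps of 800 bp or more are outside the axis. Numbers in the lower panel fall with length, starting at the shortest gap.

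The lower end of this distribution belonged to the list and not to the twins. Among all neighbouring H3K4me3 replicate 1 peaks the shortest gap was 151 bp, and in the second list it was 124 bp. No peak was narrower than 200 bp in either list. Gaps of one nucleosome core or less therefore could not be seen in H3K4me3 replicate 1. The rise at 200 bp was also shared by the whole list. A gap of exactly 200 bp occurred 108 times among all H3K4me3 replicate 1 neighbours (exact Poisson 95% interval 88.6 to 130), against 31 to 64 times for each other gap length of 190 to 210 bp. In the second list it occurred 50 times (37.1 to 65.9), against 16 to 35. Among twins it occurred 28 times (18.6 to 40.5), against 11 to 25. An excess at a single base pair was thus present in the whole of both lists, as was an excess of peaks of exactly 200 bp, of which H3K4me3 replicate 1 held 2357, against 207 peaks that were wider by 1 bp. Their cause was not tested.

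Twins had a shorter median gap than other close peaks. Against 235 bp in twins, it was 257 bp (254 to 260 bp) in the 6727 close neighbours that failed another condition. Most of these failed on the second list, a condition that a single second-list peak over both peaks also meets. Without the second-list condition the median gap of twins was 249 bp. How much of the difference comes from this choice was not tested. By chromosome, the median gap of twins lay between 214 bp on D02 and 257 bp on D05.

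At the limit of the rule, twins and their nearest outsiders were alike in number. In bp, gaps of 450 to under 500 were held by 104 twins, and gaps of 500 to under 550 by 102 eligible neighbours. The second list kept the gap in 91.3% of these twins (84.2 to 96.0%) and in 89.2% of these neighbours (81.5 to 94.5%). The longest gap inside the limit was 499 bp, first seen on A06 between peaks at 17950108 to 17951197 and 17951697 to 17952521, and the shortest outside was 500 bp, first seen on A03 between peaks at 38608643 to 38608842 and 38609343 to 38609611. The width limit mattered little. A peak of 1400 to under 1500 bp was part of 20 twins, and 50 close pairs failed on width alone, and 14 of these held a peak of 1500 to under 1600 bp. The widest peak inside the limit measured 1497 bp (D05, 5573557 to 5575053) and the narrowest outside 1504 bp (D01, 794100 to 795603).

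Twin peaks were narrow. The median width over both peaks was 386 bp (380 to 393 bp). By comparison, it was 669 bp (664 to 673 bp) for the 26919 single peaks that met the same conditions and had no neighbour within 500 bp. The whole span of a twin, with its gap, was 1075 bp at the median (quartiles 897 and 1356 bp), and ran between 554 and 2919 bp. At the median, a twin with its gap was therefore wider than a single peak, while the peaks of twins were narrower. This did not hold for every peak, since the wider peak of a twin had an upper quartile of 707 bp. The narrower peak was at the 200 bp minimum of the list in 226 twins (7.32%, 6.42 to 8.29%). Both peaks were at it in 9 twins.

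Peaks within a twin were commonly of unequal width. The wider peak had a median of 508 bp (quartiles 381 and 707 bp) and the narrower one of 295 bp (quartiles 232 and 393 bp). The ratio of wider to narrower was 1.54 at the median (1.51 to 1.57), with quartiles of 1.21 and 2.12 and a maximum of 7.49. It was under 1.5 in 47.3% of twins, 2 or more in 27.9% and 3 or more in 8.61%. The peak at the lower coordinate was wider in 1521 twins (49.3%, 47.5 to 51.0%) and equal in 12, so over all twins the interval for this side included 50%. The share was 47.4% on D (44.9 to 49.9%) and 51.1% on A (48.6 to 53.7%). Twins were not oriented by the direction of transcription, and the difference between D and A in this share was not tested.

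A like imbalance was measured in neighbours farther apart. The 1351 eligible neighbours parted by 500 bp to under 2000 bp had a median ratio of 1.54 (1.49 to 1.57), and 29.8% had a ratio of 2 or more. Both intervals overlap those of twins. Their peaks were wider, at a median of 583 bp (569 to 601 bp), and the narrower peak was at the 200 bp minimum in 2.66% of them. The widths of both peaks of a twin were nearly unrelated, with a Spearman rho of 0.07 over 3088 twins that all come from 1 library. For the neighbours farther apart it was 0.14 over 1351. Gap length was likewise nearly unrelated to the width ratio (rho 0.02) and to the summed width (rho 0.10).

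**Figure D2:**
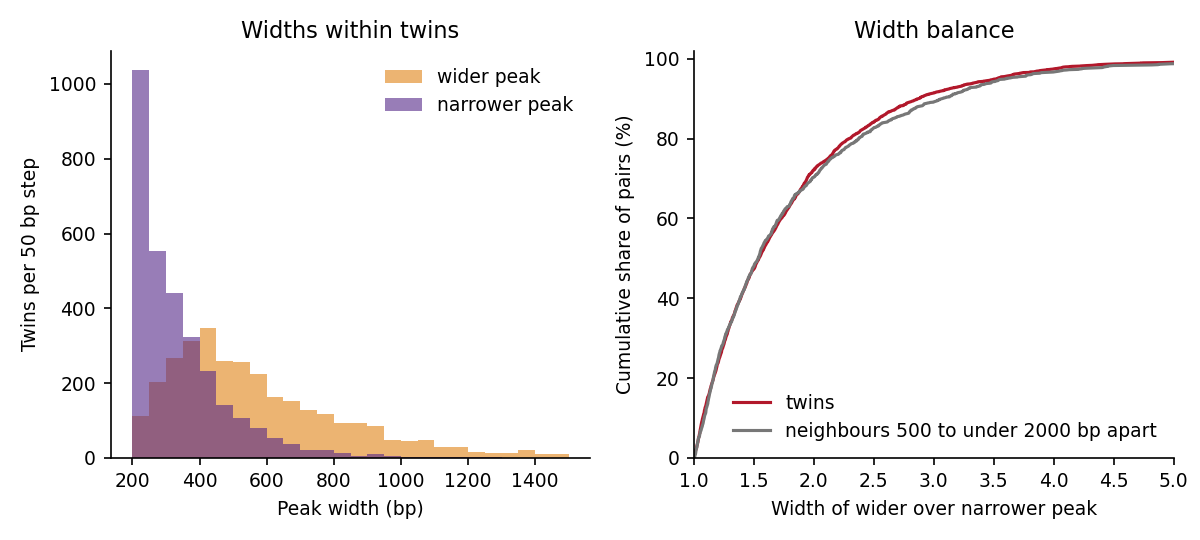
Left, widths of the wider and the narrower peak of each of the 3088 twins (x axis, bp; y axis, twins per 50 bp step). Right, cumulative share of pairs (y axis, %) by the width of the wider over the narrower peak (x axis, drawn up to 5) for twins and for 1351 neighbours 500 to under 2000 bp apart, whose medians are both 1.54.

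Whether the gap was also present in the second list was not part of the rule, which used only the overlap of each peak. A gap was called kept if at least 1 bp of it lay under no second-list peak, and bridged if one second-list peak covered all of it. The second list kept the gap in 1910 twins (61.9%, 60.1 to 63.6%) and bridged it in 1178 (38.1%). Among kept gaps, 1803 were flanked by exactly 2 second-list peaks over the twin (94.4%), 101 twins met 3 such peaks and 6 met more. The whole gap was free of second-list peaks in 613 (32.1% of those kept).

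The second list kept long gaps more often than short ones. The share kept was 44.6% of 961 twins for gaps under 200 bp (41.5 to 47.8%), 57.6% for 200 to under 250 bp, 68.7% for 250 to under 300 bp, 74.9% for 300 to under 350 bp, 84.0% for 350 to under 400 bp, 88.0% for 400 to under 450 bp and 91.3% of 104 twins for 450 to under 500 bp (84.2 to 96.0%). The order of the steps followed gap length throughout. On each of the 26 chromosomes the share was higher for gaps of 350 bp or more, where it lay between 61.5% and 100%, than for gaps under 200 bp, where it lay between 23.8% and 61.4%. Gaps under 200 bp were kept in 47.4% of 494 twins on D (42.9 to 51.9%) and in 41.8% of 467 on A (37.2 to 46.4%). Gaps of 350 bp or more were kept in 89.9% of 228 twins on D (85.2 to 93.5%) and in 84.1% of 226 on A (78.6 to 88.6%).

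**Figure D3:**
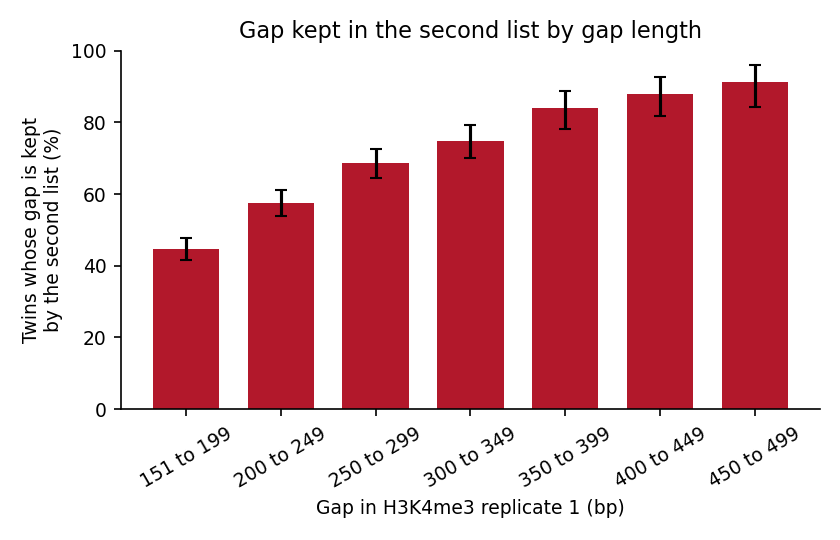
Share of twins whose gap the second list keeps (y axis, %) by the length of the gap in H3K4me3 replicate 1 (x axis, bp). Bars give shares and error bars exact 95% intervals over twins, and the share is 44.6% in the shortest class and 91.3% in the longest. A gap counts as kept at 1 open bp, which by itself favours long gaps.

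The width of the narrower peak went along with keeping as well. The share kept was 44.2% of 226 twins in which it measured 200 bp, 49.3% at over 200 to under 250 bp, 58.9% at 250 to under 300 bp, 68.0% at 300 to under 400 bp, 71.7% at 400 to under 500 bp and 82.4% at 500 bp or more. Both measures counted together. Among gaps under 250 bp the share was 61.7% of 798 twins where the narrower peak had 300 bp or more (58.2 to 65.0%), against 40.7% of 931 where it was narrower than that (37.5 to 43.9%). Among gaps of 250 bp or more it was 84.6% of 701 (81.7 to 87.2%), against 67.8% of 658 (64.1 to 71.3%). Twins with a kept gap had a median span of 1162 bp, against 947 bp for bridged ones, and their wider peak measured 553.5 bp against 437 bp. The median ratio of widths was 1.57 in kept twins (1.53 to 1.61) and 1.51 in bridged twins (1.45 to 1.55).

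Where the gap was kept, its length and place were near those in H3K4me3 replicate 1 but seldom the same. The second-list gap had a median of 279 bp (quartiles 210 and 393 bp, range 124 to 1748 bp), against 259 bp (quartiles 204 and 333 bp) for the same twins in H3K4me3 replicate 1. The difference, second list minus H3K4me3 replicate 1, had a median of 19.5 bp (14 to 26 bp), with quartiles of -44 and 98.75 bp. The second-list gap was longer in 1120 of 1910 twins (58.6%) and of equal length in 9. Its left edge lay at a median of -10 bp and its right edge at a median of 11 bp from that in H3K4me3 replicate 1. Both edges thus moved outwards by about as much.

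The centre of the gap was displaced by a median of 37.5 bp (35 to 40.5 bp), without regard to direction. It lay within 50 bp in 60.6% of kept twins and within 100 bp in 83.5%. Both edges lay within 50 bp in 31.5%. A kept gap overlaps the gap in H3K4me3 replicate 1 by definition and has second-list peaks on both sides, which bounds these shifts, so they are given as a description only. The second-list gap was shorter than 151 bp, the shortest length in H3K4me3 replicate 1, in 134 twins (7.02%), and it measured 500 bp or more in 232 (12.1%). Gap lengths in both lists had a Spearman rho of 0.39 over 1910 twins, which all come from the same library pair and share the upper limit of the rule on one side.

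The closest matches had edges that differed by 3 bp in sum on D and by 4 bp on A, each in 2 twins. The first on D lay on D05, where peaks at 7500523 to 7500830 and 7501151 to 7501350 left a gap of 320 bp. The second-list gap there spanned 7500832 to 7501148 (317 bp). The first on A lay on A02, with peaks at 11398217 to 11399133 and 11399446 to 11399995. Its gap was 312 bp in both lists. The shortest gap, 151 bp, was shared by 11 twins on D and 11 on A. The first of these on D lay on D03, between 3213924 to 3214150 and 3214302 to 3214635, and the second list had a gap of 205 bp there. The first on A lay on A01, between 199672 to 200082 and 200234 to 200540, and was bridged. The widest twin of D, on D02 at 38721143 to 38724061 (2919 bp), had a gap of 368 bp that was bridged. The widest of A, on A05 at 84644543 to 84647159 (2617 bp), had a gap of 444 bp that the second list kept at 433 bp.

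Bridged twins were covered by second-list peaks with a median width of 849 bp (829 to 868 bp). The bridging peak covered both peaks of the twin in full in 187 of 1178 cases (15.9%). Their gap in H3K4me3 replicate 1 had a median of 205 bp (201 to 209 bp).

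The balance of widths was in part carried over to the second list. In the 1803 twins kept by exactly 2 second-list peaks, the ratio of wider to narrower was 1.54 at the median (1.49 to 1.57) in the second list and 1.54 (1.50 to 1.58) in H3K4me3 replicate 1. The same side was wider in both lists in 1191 of the 1798 twins without equal widths (66.2%, 64.0 to 68.4%). Where the ratio in H3K4me3 replicate 1 was 2 or more, this share was 80.2% (390 of 486, 76.4 to 83.7%). The log2 ratio of first to second width had a rho of 0.50 between lists over these 1803 twins.

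To ask whether second-list gaps were more frequent at twins than at any stretch of H3K4me3 of the same length, twins were compared with single peaks. Spans of 600 bp to under 1500 bp were used, and second-list peaks had to reach the outermost parts of the span at both ends, taken as the outer of 3 equal lengths, in either set. A span was called broken if the second list left at least 1 bp open between its first and last base in it. Broken spans made up 61.3% of 2444 twins and 21.9% of 11382 single peaks, weighted to the spans of the twins. Over the 13 chromosome pairs the mean difference was 38.8 percentage points, with an SD of 5.16. It was above 0 in 13 of 13 pairs, and the exact two-sided permutation p over flipped signs was 0.000244, the smallest that this test can give, and a Benjamini-Hochberg adjusted p of 0.00171 over 7 tests. Second-list breaks were thus more frequent at twins in these lists, by more than the spread between chromosome pairs. The sets were matched on span only, and peak strength could not be matched. A twin holds a stretch below the threshold of H3K4me3 replicate 1, and the rule asked for second-list overlap on both sides of it. A single peak holds no such stretch and needed overlap at any place. How much of the difference comes from this choice of sets was not tested. Chromosome pairs of 1 library are not biological replicates, so the test says nothing on how other libraries would vary.

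The difference held in every class of span. In the shortest, 600 to under 700 bp, 18.5% of 124 twins were broken (12.1 to 26.5%), against 5.79% of 2643 single peaks (4.93 to 6.75%). At 900 to under 1000 bp it was 60.3% of 438 twins (55.5 to 64.9%), against 17.9% of 1486 single peaks (16.0 to 19.9%). In the longest, 1400 to under 1500 bp, it was 78.8% of 165 twins (71.8 to 84.8%), against 46.8% of 171 single peaks (39.1 to 54.6%). Longer spans were broken more often in both sets. Single peaks are joined stretches in H3K4me3 replicate 1, so their share gives a rate at which the second list parts such stretches. It covers only those of 600 to under 1500 bp that second-list peaks reach at both ends, and is no general rate.

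**Figure D4:**
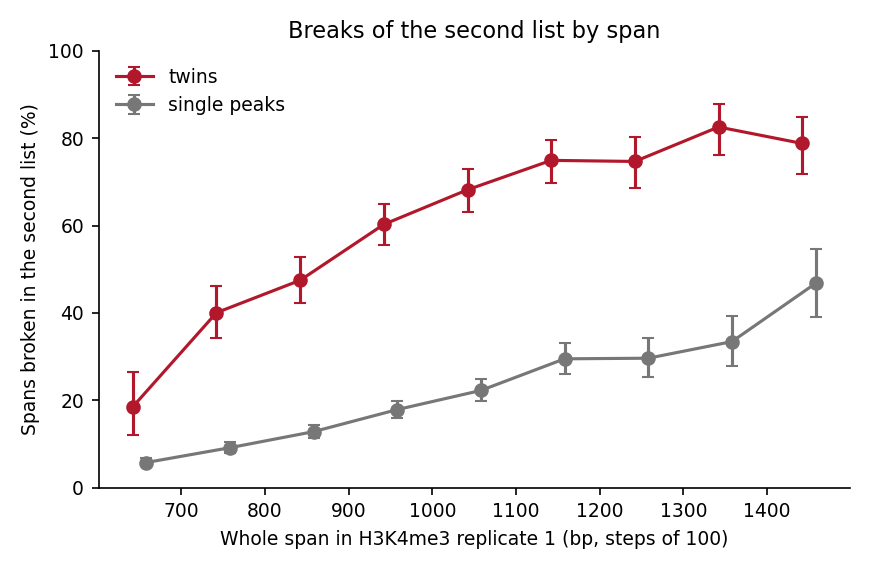
Share of spans broken in the second list (y axis, %) by the whole span in H3K4me3 replicate 1 (x axis, bp, in steps of 100), for twins and for single peaks. Points are set slightly apart, and error bars are exact 95% intervals over spans; twins lie above single peaks in each of the steps, with 60.3% against 17.9% at 900 to under 1000 bp.

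Twins of the second list, found by the same rule with both lists exchanged, gave a lower rate. There were 4220 such twins, with a median gap of 214 bp (210 to 217 bp), and H3K4me3 replicate 1 kept the gap in 1827 (43.3%, 41.8 to 44.8%). In 773 of them (18.3%) the gap was shorter than 151 bp, a length that H3K4me3 replicate 1 does not hold. It kept 17.9% of these (15.2 to 20.7%) and 49.0% of the others (47.3 to 50.7%). Of the 3088 twins of H3K4me3 replicate 1, 1673 had a gap that overlapped the gap of a second-list twin (54.2%, 52.4 to 55.9%).

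Similar numbers of twins lay on both subgenomes. The D subgenome held 1553 twins of 10423 eligible neighbours (14.9%, 14.2 to 15.6%) and the A subgenome 1535 of 10466 (14.7%, 14.0 to 15.4%). Numbers on D over numbers on A gave a mean log2 ratio of 0.05 over the 13 pairs (SD 0.31), with 6 pairs above 0, 6 below and 1 equal (exact permutation p = 0.590, adjusted p = 0.827). The share of eligible neighbours was higher on D by 0.320 percentage points on average (SD 1.59, 8 of 13 pairs, exact permutation p = 0.496, adjusted p = 0.827). Neither difference was larger than the spread between pairs. Between the outermost peaks, D chromosomes are shorter in sum (774 Mb) than A chromosomes (1160 Mb), so D held 2.01 twins per Mb and A 1.32. This density follows from like numbers on unequal lengths and was not tested.

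Numbers varied widely between chromosomes. They ran between 66 twins on A04 and 201 on A05, and D05 held 194. The share of eligible neighbours ran between 11.1% on A10 and 17.0% on D05. Pair 2 had the highest ratio of D to A, with 127 twins on D02 and 83 on A02 (log2 0.61), and pair 3 the lowest, with 82 on D03 and 123 on A03 (log2 -0.58). These 4 chromosomes matched in number when crossed, with 127 on D02 against 123 on A03, and 82 on D03 against 83 on A02, and the cause of this was not tested. Their shares of eligible neighbours were close together, between 14.9% on A02 and 16.2% on D02.

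Gap, balance and keeping were likewise compared between D and A. The median gap was 232 bp on D (228 to 237 bp) and 238 bp on A (231 to 243 bp), and over pairs D minus A was -2.42 bp on average (SD 20.0 bp, exact permutation p = 0.666, adjusted p = 0.827). The median width ratio was 1.53 on D (1.49 to 1.57) and 1.55 on A (1.51 to 1.60), with a mean difference in log2 of -0.01 (SD 0.13, exact permutation p = 0.730, adjusted p = 0.827). The second list kept the gap in 62.9% of twins on D (60.5 to 65.3%) and in 60.8% on A (58.3 to 63.2%). This share was higher on D in 8 of 13 pairs, by 2.55 percentage points on average (SD 8.04, exact permutation p = 0.268, adjusted p = 0.827). Breaks at matched spans stood at 61.8% of twins and 22.5% of single peaks on D, and at 60.7% of twins and 21.3% of single peaks on A. Averaged over pairs, each with equal weight, the excess of twins on D minus A was 0.614 points (SD 10.2, 10 of 13 pairs higher on D, exact permutation p = 0.827, adjusted p = 0.827). This mean need not match the difference of the pooled shares. None of the 6 differences between D and A reached an adjusted p of 0.05, which does not show that the subgenomes are the same. Single chromosomes ranged between 48.2% of gaps kept on A02 and 72.2% on D05.

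**Figure D5:**
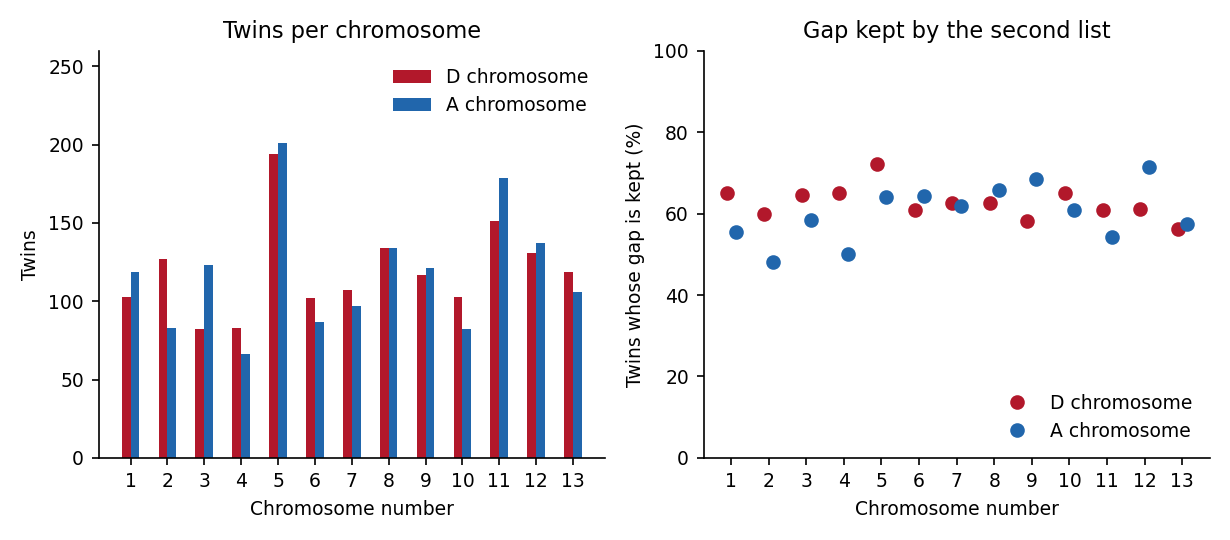
Number of twins (left y axis) and share of twins whose gap the second list keeps (right y axis, %) on each D and A chromosome (x axis, chromosome number). Numbers peak on chromosome 5 in both subgenomes (194 on D05, 201 on A05), and D and A points interleave in the right panel, where they lie between 48.2% and 72.2%.

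The surroundings of twins were set beside those of other H3K4me3 replicate 1 peaks. Twins lay within 10 Mb of a chromosome end, taken as the outermost peak, in 53.5% of cases (51.8 to 55.3%), against 52.1% of other eligible neighbours (51.4 to 52.9%). The nearest H3K27me3 replicate 1 peak was 35.9 kb away at the median (34.1 to 38.0 kb), against 36.6 kb for single peaks (36.0 to 37.4 kb). Such a peak lay within 5 kb of 8.61% of twins (7.65 to 9.66%), against 9.37% of single peaks (9.03 to 9.73%). These intervals overlap in each case. No H3K27me3 replicate 1 peak lay inside a gap, but the rule left room only for such a peak that fitted wholly between both peaks of a twin. Up to 50 kb on either side, twins had a median of 6 other H3K4me3 replicate 1 peaks, as did single peaks. The nearest further peak was 4935 bp away at the median (4690 to 5142 bp). The list labelled H3K4me3 replicate 2 met a peak of 10 twins (0.324%, 0.155 to 0.595%) and 70 single peaks (0.260%, 0.203 to 0.328%). The rule did not use that list itself. Most of its peaks lie on H3K27me3 replicate 1, however, and H3K4me3 peaks there were left out of both sets. Few overlaps could therefore remain, and nothing is concluded from their low number.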

How the data were processed

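Peak positions of 4 antibody libraries were used. According to the study's methods, the authors trimmed reads with fastp, aligned them with Bowtie2 to a TM-1 genome, filtered out duplicates (Picard) and poorly mapped reads (SAMtools), and ran MACS2 without its fragment model, in narrow mode for H3K4me3 and in broad mode for H3K27me3. The MACS2 version and the use of the input libraries as control are not given in the sources used here. MACS2 joins enriched stretches that lie close together and drops short ones. Both settings bear on the shortest gap and the narrowest peak of a list, and their values are not given in the sources used here. The deposited lists hold 3 columns (chromosome, start and end in bp) and no score, signal or read number. Both second-library lists were deposited under names with the other mark than their sample labels, and each is called here by its sample label.

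Overlaps, gaps and widths were computed in Python 3.11.15 with numpy 2.4.6 and checked against bedtools 2.31.1. A gap is the number of bases between both peaks. Shares have exact Clopper-Pearson 95% intervals (scipy 1.17.1) and medians have intervals from order statistics. They treat twins as independent, although 210 share a peak, and cover counting error only. D and A chromosomes of the same number formed 13 pairs, and the mean over pairs was tested by exact permutation (two-sided, all 8192 ways to flip signs), with Benjamini-Hochberg adjustment over 7 tests and a threshold of 0.05. The scripts were tested on simulated data. Plots were made in matplotlib 3.10.9.

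By rule, the text names in each subgenome the twin with the shortest gap, with the longest span and with the closest second-list gap, the longest run of peaks, and over both subgenomes the pairs at either end of the D to A ratio and the neighbours at both limits of the rule. Members, tests and alternatives were chosen with earlier results of these data known. Peaks on scaffolds were left out, except in an alternative. No sequence is given, as no genome of the authors' build was used here.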

Additional observations from a re-analysis of the deposited data

How the results depend on the processing

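The excess of second-list breaks at twins over single peaks kept its direction and its side of the threshold under all 26 alternatives, at 31.4 to 43.3 percentage points. In each of them twins held a stretch below the threshold of the defining list and single peaks did not. The part of this choice of sets in the excess was therefore not tested by any alternative. Lifting the width limit left the excess at 38.8 points, since only spans under 1500 bp were compared. No difference between D and A passed the threshold under any alternative. Adjustment was over the tests run in each alternative, which were fewer than 7 in some. Where several were run, the lowest adjusted p was 0.393, for the share of gaps kept without pair 9 or without pair 12 (exact permutation). A minimum of 50 bp for a kept gap gave an exact permutation p of 0.284, with a single test and so no adjustment. Their small means changed sign under some. The log2 ratio of twin numbers was -0.000822 with scaffolds added, and -0.000451 to 0.0994 without one chromosome pair at a time. The D minus A difference in median gap was 0.5 bp with an overlap of at least 50% of each peak, 3.96 bp with both lists exchanged, 0.538 bp with peaks of at least 300 bp, and -4.88 to 0.542 bp without one pair. The difference in log2 width ratio was 0.0259 at a gap limit of 300 bp, 0.00159 at 1000 bp, 0.0155 without the second-list condition, 0.0236 with both lists exchanged, and -0.0316 to 0.00103 without one pair. The difference in excess breaks was -0.536 to 2.11 points without one pair, and below 0 without pair 2 (-0.0678), pair 4 (-0.536) or pair 10 (-0.396). The share of gaps kept was 54.8% at a gap limit of 300 bp, 67.3% at 1000 bp, 63.7% with an overlap of at least 50%, 43.3% with both lists exchanged, 72.4% with peaks of at least 300 bp, and 56.4% where at least 50% of the gap had to be open. With the list labelled H3K4me3 replicate 2 as second list it was 13.6% of 22 twins, too few for a test over pairs. The number of twins was 8231 without the second-list condition and 1499 with peaks of at least 300 bp. A minimum break of 50 bp changed nothing, since the shortest second-list gap was 124 bp. Crossing pairs 2 and 3 and leaving out gaps of exactly 200 bp were chosen after the data were seen. Leaving out these gaps changed no direction or call. Crossing cannot change a mean over pairs, so only its spread and calls are informative. The SD of the log2 ratio of twin numbers was 0.184 with crossed pairs, against 0.306 in the main setting, and no call changed. The cause of these changes was not tested, and a stricter peak score could not be tried. No paired analysis was possible because replicate numbers cannot pair libraries here, where each result rests on positions from single lists. The pairs tested are D and A chromosomes within 1 list. The lists do not show depth, read totals stated by the study were not used here, and the part of depth in bridged gaps was not tested.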
